A study of Mus musculus with 9 samples.

Results

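The flavin monooxygenases are a small family of flavin-carrying enzymes of the endoplasmic reticulum, described here in the liver through the genes Fmo1, Fmo2, Fmo4 and Fmo5. The members were all probe sets whose platform annotation gave exactly 1 gene, that gene being 1 of these 4. This gave 7 of the 22690 probe sets of the array, 1 for Fmo1, 3 for Fmo2, 1 for Fmo4 and 2 for Fmo5. Of the 7, 6 passed the filter on dim signals and were tested among 15838 probe sets, and the dimmest of Fmo2 did not pass it. The rule went by gene name and set no threshold on any value. The genes were picked on earlier results of these arrays, in which the Fmo2 intensity in T-Co against NT-Co stood among the largest rises, so the values and p-values below describe these arrays and are no independent test. Fmo6 and Fmo9 had no probe set with 1 annotated gene and are not analysed here.

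Liver RNA was profiled on 9 arrays in 3 groups of 3 samples. NT-Co livers came from mice without tumour that received vehicle. T-Co livers came from athymic BALB/c nu/nu male mice that carried the human colon cancer TK-4 in the wall of the cecum, placed there at 6 weeks of age, and received vehicle. T-TSU livers came from mice with the same tumour that received TSU68, an oral inhibitor of the VEGF, PDGF and FGF receptor tyrosine kinases, at 400 mg/kg per day in 2 daily doses. Dosing began on day 7 after implantation and lasted 1 week. Strain, sex and age are stated for the implanted mice, and no sham operation is described, so tumour and implantation cannot be told apart. No group of mice without tumour on TSU68 was analysed here. Samples carry numbers but are not said to be separate animals, and the p-values reflect only the spread between them, which may be technical. Neither the hour at which livers were taken nor the feeding of the mice is stated in the labels.

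Flavin monooxygenases use NADPH and molecular oxygen to add an oxygen atom to nitrogen or sulphur in drugs, dietary amines and other small molecules. Fmo1 and Fmo5 are well known from mouse liver, and Fmo2 is best known from lung. Fmo5 differs from its relatives in inserting oxygen next to a carbonyl group, and the substrates of Fmo4 are little known. In the RefSeq gene order of the mouse, Fmo4, Fmo1, Fmo2 and Fmo6 follow one another on chromosome 1, and Fmo5 lies alone on chromosome 3.

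Of the 4 genes, 1 passed an adjusted p under 0.05 by limma in a comparison of groups. It was Fmo2, higher in both groups with tumour. Its brightest probe set was about 10.5-fold higher in T-Co than in NT-Co and 9.69-fold higher in T-TSU than in NT-Co, and T-TSU and T-Co overlapped. No difference of Fmo1, Fmo4 or Fmo5 passed the threshold, an adjusted p under 0.05 by limma over all 15838 probe sets tested. Because Fmo2 is the member that passed, the sequence before its transcription start is shown. RefSeq (GRCm38.p6) gives 2 starts 265 bases apart, and each window runs from 250 bases before to 50 bases after a start on the minus strand. The upstream start has the window chr1:162898709-162899008 and the downstream start chr1:162898444-162898743, and the windows share 35 bases. Capitals mark matches, on either strand, to 6 short motifs.
Fmo2 upstream start: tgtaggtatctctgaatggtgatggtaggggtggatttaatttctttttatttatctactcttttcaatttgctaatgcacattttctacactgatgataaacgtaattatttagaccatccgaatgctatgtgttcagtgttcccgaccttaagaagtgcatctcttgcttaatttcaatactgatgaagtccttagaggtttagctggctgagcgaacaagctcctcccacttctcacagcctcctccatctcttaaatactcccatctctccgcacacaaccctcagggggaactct
Fmo2 downstream start: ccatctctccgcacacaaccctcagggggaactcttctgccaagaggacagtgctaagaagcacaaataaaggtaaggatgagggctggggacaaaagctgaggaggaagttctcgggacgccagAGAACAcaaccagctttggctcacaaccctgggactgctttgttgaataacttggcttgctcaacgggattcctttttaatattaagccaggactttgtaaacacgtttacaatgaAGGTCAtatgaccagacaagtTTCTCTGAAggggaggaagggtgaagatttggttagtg
The motifs searched were the E-box CACGTG, the dioxin response core GCGTG, the glucocorticoid half-site TGTTCT, the STAT element TTCNNNGAA, the nuclear receptor half-site AGGTCA and the D-box TTANNTAA. The upstream window held 0 matches. The downstream window held 3, a glucocorticoid half-site on the opposite strand starting at base 126, a nuclear receptor half-site at base 242 and a STAT element at base 263, counted from 1 at the 5′ end of the printed strand. Among all 32851 promoter windows of the table, 19.0% held the glucocorticoid half-site, 16.3% the nuclear receptor half-site, 8.30% the STAT element, 32.4% the dioxin response core, 7.15% the E-box and 6.00% the D-box. A match describes these letters only. In the Fmo4 window there were 2 matches, a nuclear receptor half-site and a D-box, and in the Fmo5 window 0. No window of Fmo1 was in the table. The Fmo5 window had a GC content of 56.0% and 10 CpG pairs, against 41.3% and 5 for the upstream Fmo2 window and 42.7% and 4 for that of Fmo4. The median window had 52.7% and 7.

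The arrays had been scaled to a common level, with medians of 108 to 120 intensity units. On the first principal component of the tested probe sets, which held 27.3% of the variance, NT-Co arrays lay at -40.9 to -34.7, T-Co arrays at 15.4 to 44.3 and T-TSU arrays at -3.9 to 19.8. The second component set T-Co replicate 13, at -48.7, away from the other arrays, at -17.7 to 31.0. The T-Co minus NT-Co difference is given with and without that array for the brightest Fmo2 probe set and the dimmer Fmo5 probe set. The gene lists, the marker sums and the ranking by likeness to Fmo2 are given only with that array. Control probe sets at both ends of beta-actin track RNA quality, and their 3′ over 5′ ratio averaged 2.72 ± 0.440 for the NT-Co arrays, 1.98 ± 0.112 for T-Co and 2.02 ± 0.201 for T-TSU (SD, n = 3). The same ratio of Gapdh, the other such control, was 0.765 ± 0.0313, 0.765 ± 0.0393 and 0.767 ± 0.0750 in that order. The labelled tissue was checked by 7 hepatocyte markers, among them Alb, Ttr and Apoa1, whose summed intensity was 169189 to 184445 for NT-Co, 189951 to 202858 for T-Co, and 172029.6 to 181708 for T-TSU. None of the 7 was at 0 on all 9 arrays, and 1, Cps1, rose from NT-Co to T-Co (0.46 ± 0.09, adjusted p = 0.00923).

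**Figure D1:**
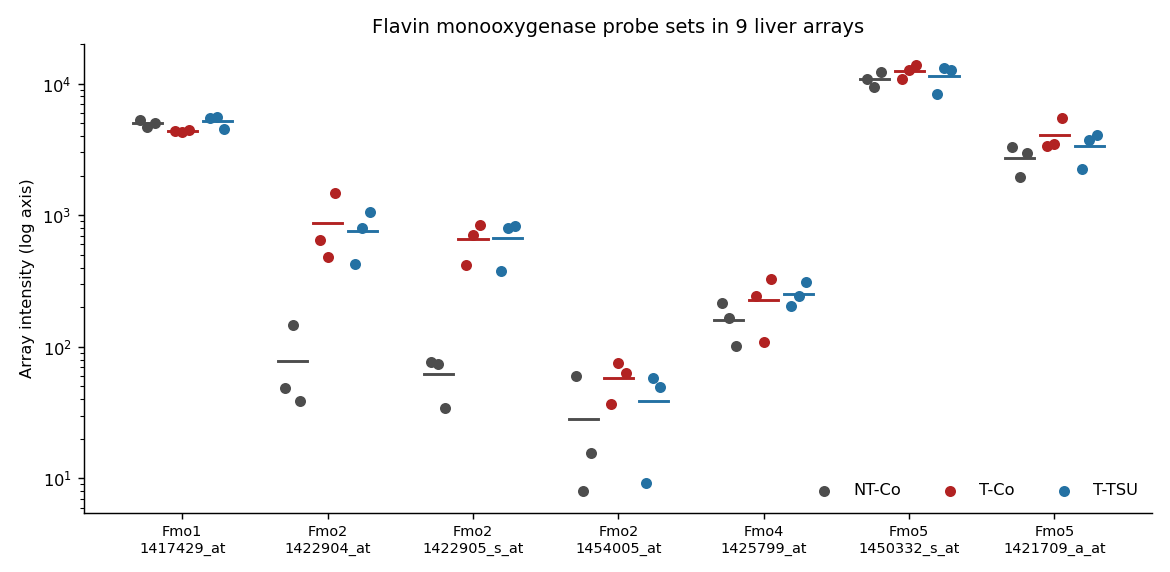
Intensity (log axis) of the 7 flavin monooxygenase probe sets in each of 9 liver arrays, by group; points are arrays and lines are group means (n = 3). The Fmo2 probe sets 1422904_at and 1422905_s_at have all 6 tumour arrays above the NT-Co arrays, while the groups of Fmo4 and of the brighter Fmo5 probe set overlap.

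Fmo2 was measured by 3 probe sets. The brightest, 1422904_at, had intensities of 49.0, 147 and 38.6 in NT-Co replicates 8, 10 and 11. It had 649, 482 and 1484 in T-Co replicates 9, 10 and 13, and 426, 799.5 and 1059 in T-TSU replicates 2, 12 and 14. Every array of the groups with tumour lay above every NT-Co array, and the T-Co and T-TSU arrays were interleaved. Group means were 78.2 ± 59.8 for NT-Co, 872 ± 537 for T-Co, and 761 ± 318 for T-TSU (SD, n = 3). Replicate 10 was the highest of NT-Co at this probe set, and replicate 13 the highest of T-Co.

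On the log2 scale 1422904_at rose by 3.40 ± 0.49 (SE) from NT-Co to T-Co, with a 95% interval of 2.34 to 4.46 (limma adjusted p = 0.00202). It ranked 15th among the rises of all 15838 probe sets. Without T-Co replicate 13 the rise was 2.93 (adjusted p = 0.00486), and without NT-Co replicate 10 it was 3.93 (adjusted p = 0.00245). NT-Co values lay near the filter level of 42.0 units, and array values this low carry background, so the size of the fold is uncertain. The log2 difference was 3.55 with a pseudocount of 1 and 3.01 with one of 32, in place of 7.93. From NT-Co to T-TSU the rise was 3.28 ± 0.49 (adjusted p = 0.00314), a comparison that uses the same NT-Co arrays. Between T-TSU and T-Co the difference was -0.12 ± 0.49 (adjusted p = 0.961). Its 95% interval ran from -1.18 to 0.94, or from 0.441-fold to 1.92-fold, so these arrays do not exclude a difference within that range.

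The second Fmo2 probe set, 1422905_s_at, is annotated to the same RefSeq transcript as 1422904_at. Its intensities were 76.9, 74.6 and 34.3 in NT-Co replicates 8, 10 and 11, then 419, 707 and 848 in T-Co replicates 9, 10 and 13, and 378, 802 and 825 in T-TSU replicates 2, 12 and 14. Here NT-Co replicate 10 was not set apart from replicate 8. The rise from NT-Co to T-Co was 3.26 ± 0.36 (adjusted p = 7.09e-04), and that from NT-Co to T-TSU was also 3.26 ± 0.36 (adjusted p = 6.66e-04). T-TSU against T-Co differed by 0.00 ± 0.36, with a 95% interval of -0.79 to 0.78. The profiles of both probe sets over the 9 arrays, each centred on its mean, differed by a root mean square of 0.50 on the log2 scale. The suffix _s_at marks probes that can match more than 1 transcript, and cross-hybridisation with another family member was not tested.

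The third Fmo2 probe set, 1454005_at, is annotated to another transcript record of the gene and was dim. It read 60.5, 7.99 and 15.7 for NT-Co, 36.5, 74.8 and 63.2 for T-Co, and 9.28, 57.6 and 49.6 for T-TSU, in the replicate order above. All 3 groups overlapped. Its mean of log2 values was 1.12 higher in T-Co than in NT-Co, and it was not tested because its mean intensity lay below the filter. Its centred profile differed from those of the other Fmo2 probe sets by 1.58 and 1.33.

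Fmo1, an amine and sulphide oxidase of the liver, was bright and steady at its probe set 1417429_at. The NT-Co arrays read 5293, 4723 and 5060.2, the T-Co arrays 4402, 4261 and 4442, and the T-TSU arrays 5479.9, 5537 and 4527. Every T-Co array lay below every array of the other groups, by a small margin. Means were 5025 ± 287 for NT-Co, 4368 ± 95.3 for T-Co, and 5181 ± 567 for T-TSU (SD, n = 3). T-Co minus NT-Co was -0.20 ± 0.11 on the log2 scale (adjusted p = 0.332), with a 95% interval of -0.45 to 0.05. T-TSU minus T-Co was 0.24 ± 0.11 (unadjusted p = 0.0554, adjusted p = 0.490 by limma), with an interval of -0.01 to 0.49. NT-Co and T-TSU differed by 0.04 ± 0.11. The ends of these intervals limit a change of Fmo1 to between 0.734-fold and 1.40-fold in each of the 3 comparisons.

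Fmo5 was measured by 2 probe sets. The brighter, 1450332_s_at, read 10767, 9397 and 12201 for NT-Co, 10825, 12679 and 13786 for T-Co, and 8309.6, 13187 and 12636 for T-TSU. The groups overlapped, with T-TSU replicate 2 the lowest of all 9 arrays. The log2 differences were 0.21 ± 0.17 for T-Co against NT-Co (adjusted p = 0.538) and -0.15 ± 0.17 for T-TSU against T-Co (adjusted p = 0.814). The other probe set, 1421709_a_at, read 3278, 1953 and 2954 for NT-Co, 3338, 3489 and 5483 for T-Co, and 2260.5, 3751 and 4055 for T-TSU. All T-Co arrays lay above all NT-Co arrays here, replicate 9 by a margin of 3338 to 3278. The difference of 0.58 ± 0.26 had an unadjusted p of 0.0424 and did not pass after adjustment (0.206 by limma). It was 0.36 without T-Co replicate 13, the highest (adjusted p = 0.499), and 0.36 without NT-Co replicate 10, the lowest (adjusted p = 0.495). Both Fmo5 probe sets had the same sign in each of the 3 comparisons, and their centred profiles differed by 0.25.

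Fmo4 was variable at its probe set 1425799_at, and less bright than Fmo1 and Fmo5. It read 216, 165 and 102 for NT-Co, 242, 108 and 325 for T-Co, and 206, 242 and 313 for T-TSU. The 3 groups overlapped, and the order of their means was NT-Co, T-Co, T-TSU. The log2 differences were 0.40 ± 0.37 for T-Co against NT-Co (adjusted p = 0.584), 0.28 ± 0.37 for T-TSU against T-Co (adjusted p = 0.841) and 0.67 ± 0.37 for T-TSU against NT-Co (adjusted p = 0.398). The last had a 95% interval of -0.12 to 1.47, so these arrays leave room for a change of up to 2.77-fold.

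**Figure D2:**
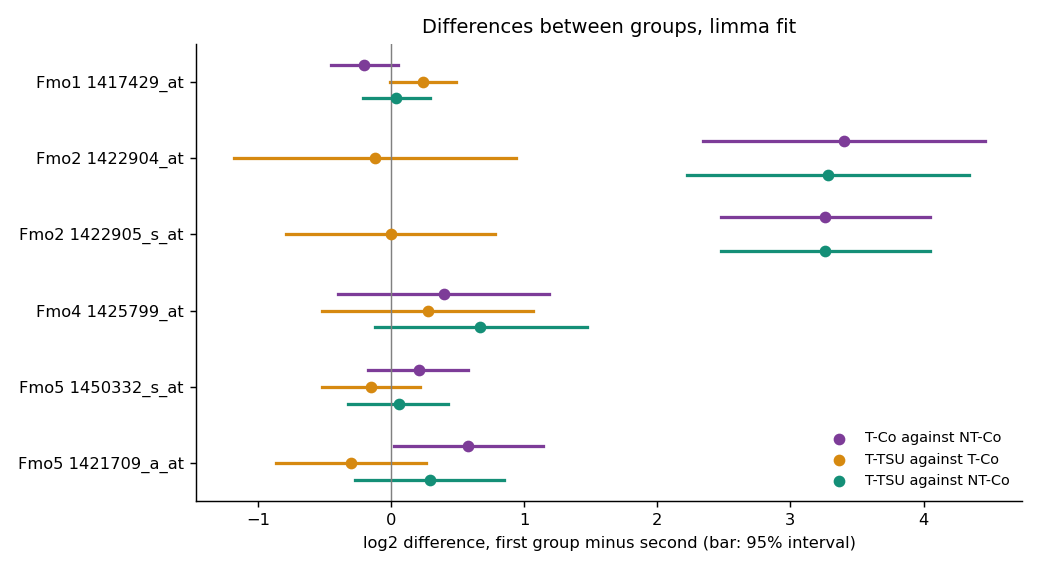
Log2 differences of the 6 tested probe sets in the 3 comparisons, with 95% intervals from the limma fit over 9 arrays. The intervals of both Fmo2 probe sets lie above 2 for the comparisons with NT-Co and span 0 for T-TSU against T-Co, and those of the other probe sets lie between -0.86 and 1.47.

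In T-Co against NT-Co, 2 of the 6 tested probe sets passed, both of Fmo2 and both higher, where 6.59% of all tested probe sets passed (4.19% higher). The overall count was 1043 and fell to 468 without NT-Co replicate 8 and to 451 without NT-Co replicate 11. At 4 of the 6 all T-Co arrays lay on one side of all NT-Co arrays, as they did at 27.0% of all probe sets. In T-TSU against NT-Co, 2 of 6 passed, again those of Fmo2 and both higher, where 3.93% of all did (2.56% higher). At these 2 the arrays did not overlap, where 24.3% of all did not. The overall count of 622 was 324, 408 and 294 without NT-Co replicates 8, 10 and 11, and 318 and 293 without T-TSU replicates 12 and 14. In T-TSU against T-Co, 0 of 6 passed by limma and 0 had an unadjusted p under 0.05, where 0.0505% of all passed and 10.5% had such a p. The overall count of 8 was 34 without T-Co replicate 10, 59 without T-TSU replicate 12 and 0 without T-TSU replicate 2 or 14. At 1 of the 6, Fmo1, the arrays of T-TSU and T-Co did not overlap, where 14.2% of all did not. The T-Co arrays enter 2 of these comparisons and the NT-Co arrays 2, so the comparisons are not independent.

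**Figure D3:**
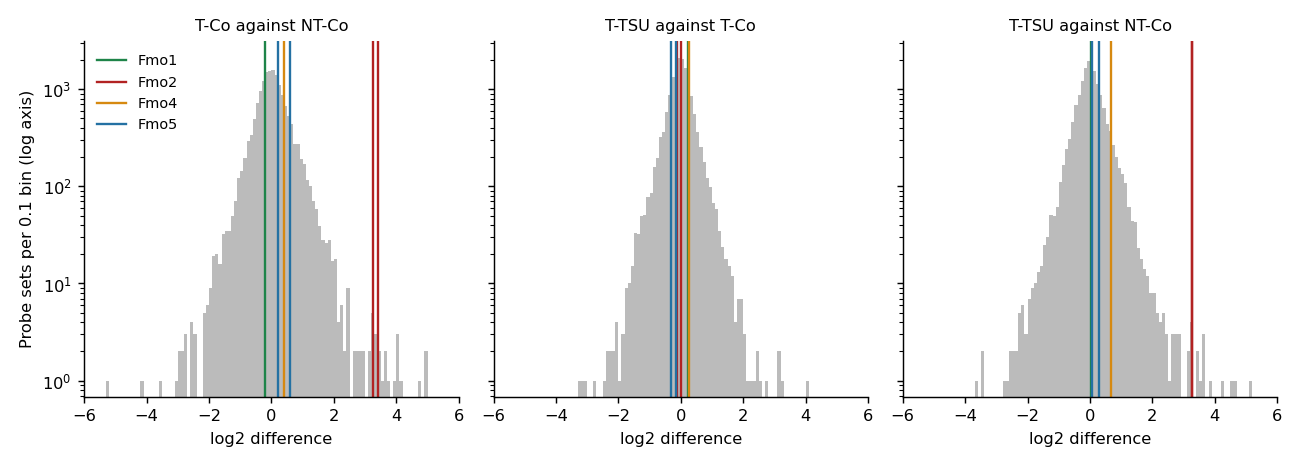
Log2 differences of all 15838 tested probe sets (grey, log axis) in the 3 comparisons, with vertical lines at the 6 tested flavin monooxygenase probe sets. Both Fmo2 lines stand in the right tail against NT-Co, past 99.9% of probe sets by size, and near 0 in T-TSU against T-Co, where the lines of all 4 genes lie within the bulk.

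Within groups the members varied to different degrees. The residual SD of the fit on the log2 scale was 0.11 for Fmo1, where the median of the 500 probe sets nearest to it in level was 0.17. For Fmo2 it was 0.82 and 0.58 at its tested probe sets, against 0.25 among probe sets of like level, and 99.2% and 96.8% of those varied less. Fmo4 had 0.57, against 0.29. Fmo5 had 0.26 and 0.42, against 0.15 and 0.17. Several of the 7 probe sets, which stand for 4 genes, were high or low on the same array. T-Co replicate 13 was the highest of its group at 6 of the 7 probe sets, all but 1454005_at. T-TSU replicate 2 was the lowest of its group at 6 of the 7, all but that of Fmo1. The share of all probe sets at which these arrays were so placed was not counted, so this is not particular to the family.

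Genes next to the family on the chromosomes were looked at for comparison, a step chosen after values had been seen. Of 10 protein-coding genes that flank the family on chromosome 1, 5 on each side, 4 were tested and 0 passed by limma in any of the 3 comparisons. An unadjusted p under 0.05 was found for 1 of them in 1 comparison, Prrx1 in T-TSU against T-Co (-1.09, unadjusted p = 0.0258, adjusted p = 0.396 by limma). Of the 10 protein-coding genes nearest to Fmo5, 6 were tested, and 0 passed by limma or had an unadjusted p under 0.05 in any comparison. Fmo1 and Fmo4, on the same side of Fmo2 in the gene order, had differences of -0.20 and 0.40 from NT-Co to T-Co beside its 3.40.

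Among all tested genes, those whose log2 values lay closest to Fmo2 over the 9 arrays, each profile centred on its own mean, were St3gal5, Tef, Sp3, Usp2 and Plk3. St3gal5, the synthase of the ganglioside GM3, differed from Fmo2 by a root mean square of 0.64. Its mean intensity was 339.9 for NT-Co, 3366 for T-Co, and 2653 for T-TSU. For Tef, a clock output factor, the distance was 0.72, for the transcription factor Sp3 0.76, for the deubiquitinase Usp2 0.76 and for the kinase Plk3 0.80. All 5 were low in NT-Co and high in both groups with tumour, and their T-TSU minus T-Co differences ran from -0.41 for St3gal5 to 0.56 for Tef. Turned in sign, the closest were Elovl3, a fatty acid elongase (0.68), the DNA methyltransferase Dnmt3b (0.87) and Ndrg1 (0.90). Elovl3 had 13758 for NT-Co, 854 for T-Co, and 1250.5 for T-TSU. These genes were chosen for their likeness over the same arrays, so it carries no test. No such ranking was made for Fmo1, Fmo4 and Fmo5, whose group means lay within 0.24, 0.67 and 0.21 of each other.

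**Figure D4:**
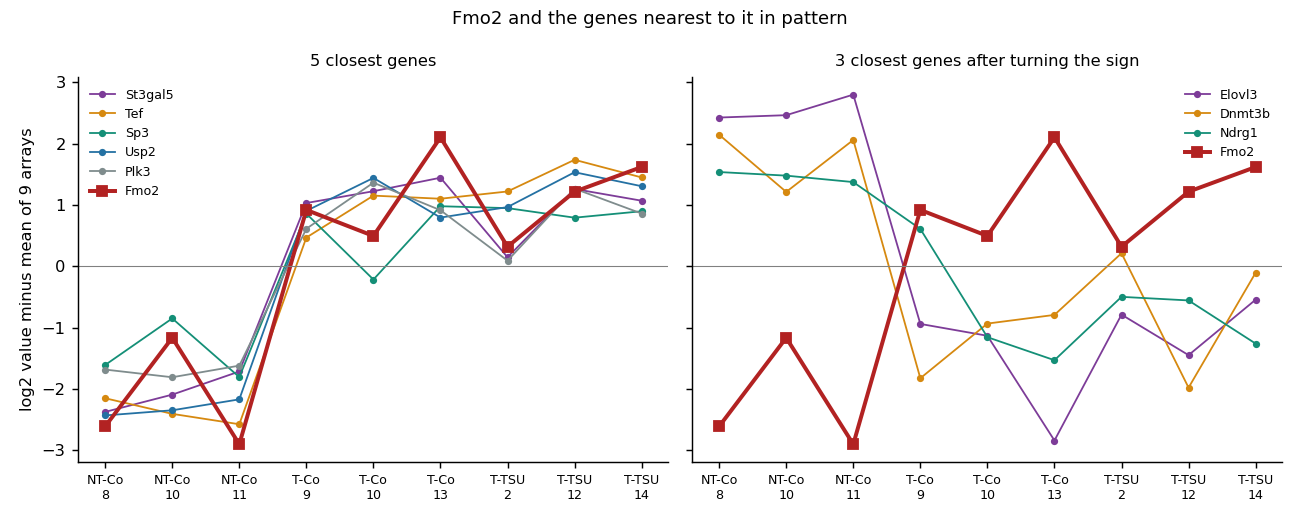
Log2 values, centred on the mean of the 9 arrays, of Fmo2 (1422904_at, thick red line) with the 5 genes of smallest root mean square difference (left) and the 3 of smallest difference after turning the sign (right). The group means of the 5 genes lie between -2.38 and -1.42 in NT-Co and between 0.54 and 1.47 in T-Co and T-TSU.

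The enzymes depend on FAD and NADPH, and genes that supply these cofactors were read beside them. The lists that follow were written with earlier results of these data known, and the brightest tested probe set stands for each gene. Of 13 tested genes of FAD and NADPH supply, 0 passed in T-Co against NT-Co by limma and 3 had an unadjusted p under 0.05, as did 22.3% of all probe sets tested. That share was 16.9% in T-TSU against NT-Co. In T-Co against NT-Co the median of the 13 was -0.19, beside 0.01 for all probe sets. In T-TSU against NT-Co 1 of 13 passed, Pgd of the pentose phosphate pathway, which fell, at -0.72 ± 0.16 on the log2 scale (adjusted p = 0.0259). Rfk, the riboflavin kinase that makes the precursor of FAD, differed by 0.19 ± 0.15 from NT-Co to T-Co (adjusted p = 0.513).

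Other enzymes that oxidise amines, aldehydes and sulphur, with their electron carriers, moved both ways. Of 11 tested, 1 rose and 2 fell from NT-Co to T-Co, with a median of -0.36, where 6.59% of all probe sets tested passed. Cdo1, the cysteine dioxygenase, rose by 0.88 ± 0.12 (adjusted p = 0.00127). The aldehyde oxidases Aox1 and Aox3, which act on aldehydes and nitrogen heterocycles, fell, with differences of -1.11 and -1.24 (adjusted p = 0.0145 and 0.0304). In T-TSU against T-Co 0 of the 11 passed by limma and 4 had an unadjusted p under 0.05, where 10.5% of all probe sets had such a p. Among 12 tested genes of trimethylamine and choline use, 1 fell and 0 rose from NT-Co to T-Co, with a median of -0.04. The gene was Chka, a choline kinase, at -1.68 ± 0.29 (adjusted p = 0.00503), and it also fell from NT-Co to T-TSU, at -2.42 (adjusted p = 7.97e-04).

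Liver genes with a sex bias were read beside the family. Of 12 tested female-biased genes, none of them a flavin monooxygenase, 5 rose and 0 fell in T-Co against NT-Co, with a median of 1.43. They were the steroid hydroxylase Cyp17a1 (3.45 ± 0.49), the peroxisomal transporter Abcd2 (2.91 ± 0.75, from an intensity of 4.18), the cofactor Trim24 (1.94 ± 0.19), the transporter Slco1a4 (1.59 ± 0.24) and Tox (1.26 ± 0.32). Of 18 tested male-biased genes, 7 fell and 0 rose, with a median of -1.02. The 4 with the smallest p were Elovl3 (-4.20 ± 0.40), the steroid dehydrogenase Hsd3b5 (-5.24 ± 0.69), the adipokine Serpina12 (-1.70 ± 0.26) and the CoA hydrolase Nudt7 (-1.63 ± 0.29). From NT-Co to T-TSU 2 of the female-biased genes rose, Trim24 (1.38 ± 0.19) and the thioesterase Acot3 (2.17 ± 0.33), and 1 of the male-biased fell, Elovl3 (-3.49 ± 0.40). Of all probe sets tested, 6.59% passed in T-Co against NT-Co (4.19% higher) and 3.93% in T-TSU against NT-Co (2.56% higher). In T-TSU against T-Co 0 genes of either list passed by limma, while 6 of 12 and 13 of 18 had an unadjusted p under 0.05, and the medians were -0.40 and 0.84. Such a p was found at 10.5% of all probe sets tested in that comparison. Beside the -0.12 of Fmo2 in that comparison, Cyp17a1 had -2.75 ± 0.49 (adjusted p = 0.0614), Slco1a4 had -0.93 ± 0.24 and Hsd3b5 had 4.01 ± 0.69 (adjusted p = 0.0568). Elovl3 had 0.71 ± 0.40. Whether Fmo2 differs from these genes in its T-TSU minus T-Co difference was not tested.

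Of 20 tested fasting and glucocorticoid-responsive genes, 12 rose and 0 fell from NT-Co to T-Co, with a median of 0.88. Among all probe sets tested, 6.59% passed in that comparison, 4.19% of them all being higher. The coactivator Ppargc1a of hepatic fasting programmes rose by 4.76 ± 0.34, Lpin1, a phosphatidate phosphatase, by 4.05 ± 0.47, and Igfbp1, an IGF-binding protein, by 4.94 ± 0.59. The metallothionein Mt2 rose by 3.65 ± 0.59 (adjusted p = 0.00382). Pdk4 and Fgf21, also induced by fasting, differed by -0.63 ± 0.41 and -0.67 ± 0.42 and did not pass. Sgk1 (-0.61 ± 0.33), G6pc (-0.31 ± 0.25) and Cdkn1a (-0.78 ± 0.79) were also lower in T-Co and did not pass, while 15 of the 20 lay above 0. In T-TSU against NT-Co 9 of the 20 rose and 1, Sgk1, fell (-1.45 ± 0.33, adjusted p = 0.0282 by limma), with a median of 0.93. There 3.93% of all probe sets passed (2.56% higher). In T-TSU against T-Co 0 passed by limma, 5 had an unadjusted p under 0.05 and the median was -0.48. Such a p was found at 10.5% of all probe sets tested. Beside the -0.12 of Fmo2 in this last comparison, the 20 ran from -2.14 ± 0.59 for Igfbp1 (adjusted p = 0.219) to 0.51 ± 0.56 for Gadd45a. Of 6 tested targets of the aryl hydrocarbon receptor, 0 rose and 1, Ugdh, fell in T-Co against NT-Co (-0.50 ± 0.14, adjusted p = 0.0488), and the classic target Cyp1a1 differed by 0.00 ± 0.30.

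**Figure D5:**
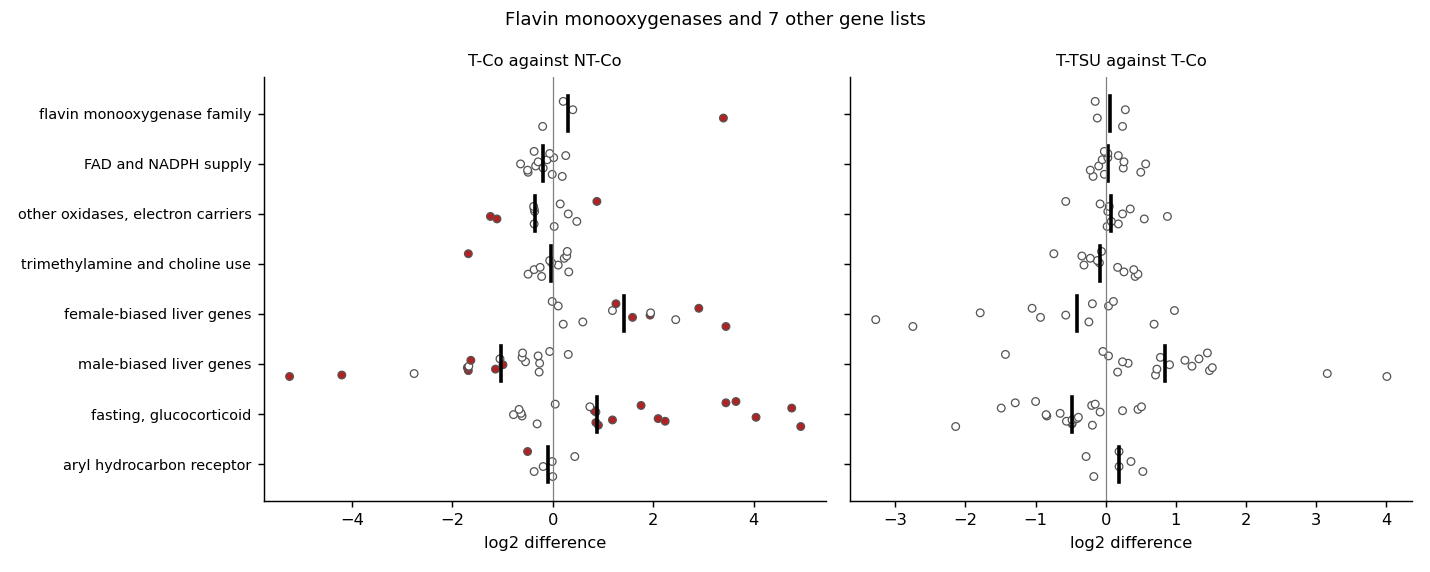
Log2 differences of the brightest tested probe set of each gene in the flavin monooxygenase family and 7 other lists, for T-Co against NT-Co (left) and T-TSU against T-Co (right); filled points passed at an adjusted p under 0.05 and bars are list medians. Fmo2 is the filled point of the top row at 3.40, and 12 of 20 fasting and glucocorticoid genes are filled on the left, while no listed gene is filled on the right. Among all tested probe sets, 6.59% passed in T-Co against NT-Co and 0.0505% in T-TSU against T-Co.

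Other measures were read over the same groups as Fmo2. The 3′ over 5′ ratio of beta-actin given above had all T-Co and T-TSU arrays below all NT-Co arrays, while the Gapdh ratio overlapped among the groups. In mean summed intensity, the endothelial and macrophage markers below were higher in T-Co than in NT-Co, but not in T-TSU. Of 10 endothelial markers 1 rose from NT-Co to T-Co, Pecam1, by 1.89 ± 0.50 (adjusted p = 0.0435). The summed intensity of the 10 was 2440.2 to 3225 for NT-Co, 2937 to 4596 for T-Co, and 2034 to 2889 for T-TSU, with none at 0 on all 9 arrays. For 9 Kupffer cell and macrophage markers, of which 0 passed by limma in any of the 3 comparisons (2 at an unadjusted p under 0.05 in T-Co against NT-Co, 7 in T-TSU against T-Co and 1 in T-TSU against NT-Co), the sum was 7172 to 9960.4, 9631 to 14853 and 4284 to 9675 in the same order. For 9 markers of stellate cells and fibroblasts, of which Col3a1 fell from NT-Co to T-Co (-1.03 ± 0.20), it was 6992 to 7685, 5569 to 6318 and 6181 to 7376. Of 7 pericentral hepatocyte markers, 0 passed by limma in any comparison, with 2 or 3 at an unadjusted p under 0.05 in each. Of all probe sets tested, 22.3% had such a p in T-Co against NT-Co, 10.5% in T-TSU against T-Co and 16.9% in T-TSU against NT-Co. Of 3 periportal markers, Pck1, the gluconeogenic carboxykinase, rose from NT-Co to T-Co (0.91 ± 0.15, adjusted p = 0.00408) and to T-TSU (0.72 ± 0.15, adjusted p = 0.0189). Pck1 also counts among the rising genes of the fasting and glucocorticoid list above. Hal, the histidine ammonia-lyase, fell from NT-Co to T-TSU (-0.71 ± 0.12, adjusted p = 0.00660). From NT-Co to T-Co Hal differed by -0.27 ± 0.12 and did not pass. Cyp2f2 differed from NT-Co by -0.21 ± 0.11 in T-Co and -0.26 ± 0.11 in T-TSU, and passed in neither. The periportal sum was 34872 to 39722, 38310.3 to 44101 and 34869.6 to 39499.

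Markers of blood cells, of cholangiocytes and of organs next to the liver were read over the same groups. The sum of 2 erythroid markers was 1942 to 2364 for NT-Co, 308 to 1026 for T-Co, and 1155 to 2144 for T-TSU. Alas2, the erythroid enzyme of haem synthesis, fell from NT-Co to T-Co (-1.84 ± 0.38, adjusted p = 0.0134). The sum of 4 adipocyte and pancreas markers was 2314 to 2563, 1049 to 1632 and 1337 to 1948 in the same order. Most of it in NT-Co was the elastase Cela1, with a mean of 2173 beside a mean sum of 2477. Cela1 fell from NT-Co to T-Co (-1.85 ± 0.24, adjusted p = 0.00127). Fabp4 and Prss2, also tested, were higher in T-Co, by 0.85 ± 0.47 and 1.38 ± 0.54, and did not pass. For 5 neutrophil markers, of which 4 were tested, the sum was 453 to 685, 745 to 1837 and 445 to 674. None of the 4 passed in T-Co against NT-Co by limma, and 2 had an unadjusted p under 0.05, as did 22.3% of all probe sets tested. Lymphocyte sums, over 5 markers, were 563 to 1244, 392 to 575 and 336 to 548, and cholangiocyte sums, over 4, were 192 to 264, 217 to 286 and 144 to 215. No marker in any of these lists was at 0 on all 9 arrays, which says little because low array values carry background. The part of these markers and of the beta-actin ratio in the Fmo2 difference was not tested. In whole liver, fewer cells of a type and less RNA per cell cannot be told apart.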

How the data were processed

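Total RNA (5 µg) was labelled as biotin cRNA for 3′ expression arrays, per the labels' protocols. The deposited values are linear array intensities, 1 per probe set and sample, which the authors had scaled (every array has a mean of 500.3 after removing 2% of values at each end). No source used here names the summarisation software. Genes were named from the platform annotation, for probe sets with 1 gene (20380). After 64 control probe sets were left out, 7.93, the 10th percentile of the whole table, was added to each intensity before log2, which understates fold changes of dim genes. Probe sets with an arithmetic mean under the 30th percentile (42.0) were removed. A group-means model on all 9 arrays (6 residual degrees of freedom) was fitted with limma 3.58.1 in R 4.3.3, with an intensity trend, two-sided tests and Benjamini-Hochberg adjustment over 15838 probe sets. With 3 against 3 samples an exact permutation test cannot go below 0.1, so none is given. The pipeline was tested on simulated data. Promoter windows came from RefSeq. The genes named were the members, up to 4 passing genes of each list with the smallest p (up to 2 in the comparisons with T-TSU), and the genes closest to a member in pattern. Abcd2, Rfk, Pdk4, Fgf21, Sgk1, G6pc, Cdkn1a, Cyp1a1, Gadd45a, Prrx1 and the markers named were chosen after their values were seen. The members and lists were chosen with earlier results of these data known. The number of arrays limits the precision.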

Additional observations from a re-analysis of the deposited data

How the results depend on the processing

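Fmo2 passed in T-Co and in T-TSU against NT-Co under every alternative run, at both tested probe sets: the log2 difference of 1422904_at was 2.93 to 3.93 for T-Co (highest adjusted p 0.0231, without the intensity trend) and 2.89 to 3.81 for T-TSU (highest 0.0345), and that of 1422905_s_at 2.86 to 3.55 and 2.86 to 3.62. No difference of Fmo1, Fmo4 or Fmo5 passed under any alternative run, nor did T-TSU against T-Co for Fmo2. Differences near 0 changed sign in places. In T-TSU against T-Co these were Fmo2 1422904_at (-0.46 to 0.34 with 1 array left out), Fmo2 1422905_s_at (-0.29 to 0.36, and 0.01 with quantile normalization, 0.02 with median-centred arrays and 0.15 with array weights), Fmo4 (-0.16 to 0.60) and Fmo5 1450332_s_at (-0.27 to 0.06). In T-TSU against NT-Co they were Fmo1 (-0.01 to 0.13) and Fmo5 1450332_s_at (-0.07 to 0.27). The count of all probe sets passing moved further. For T-Co against NT-Co it was 470 without the trend, 328 against a fold of 1.2 and 451 to 960 with 1 array left out, in place of 1043. For T-TSU against NT-Co it was 262, 233 and 293 to 498, and 1037 with array weights, in place of 622. For T-TSU against T-Co, with 8, it was 26 with a pseudocount of 32, 15 with a robust trend, 5 with array weights, 1 with quantile normalization, and 0 without the filter, with median-centred arrays, without the trend, with only the 2 groups compared and against a fold of 1.2 (638 to 2043 at an unadjusted p under 0.05 by limma); with 1 array left out it was 0 to 59. The cause was not tested. No paired analysis was possible because the groups share only 1 replicate number, 10, and only NT-Co and T-Co share it. Dim signal limits Fmo2 in NT-Co and 1454005_at. The group means of Fmo4, 161 to 254, lay above the array medians of 108 to 120, and its spread within groups limits it. No detection calls were used.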
